A study of Drosophila melanogaster with 2 samples.

Results

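The mitochondrial ribosomal protein genes are the protein-coding genes of Drosophila melanogaster whose symbols start with mRpL, for the large subunit, or mRpS, for the small subunit. They were chosen by symbol alone in the Ensembl annotation of BDGP6 (dm6), which gave 73 genes, 47 mRpL and 26 mRpS, among 13945 protein-coding genes. Binding at their starts of fd102C, a protein with a fork head domain, was read from ChIP-seq peak lists of whole embryos. The embryos were of both sexes and 2 to 6 h old by their source label, and carried a stable transgene for fd102C with GFP at its C-terminal end. There was 1 group of 2 biological replicates and no other condition. One description field of both samples calls them an input control, whereas the assay and antibody fields name a transcription factor ChIP and fd102C, and they were read as ChIP. Because whole embryos were used, binding in a few cells and weak binding in many cannot be told apart.

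The mitochondrial ribosome translates the few proteins encoded by mitochondrial DNA, which are core subunits of the respiratory chain and the ATP synthase. All of its own proteins are encoded in the nucleus, made in the cytosol and imported. Fork head domain proteins are transcription factors that bind DNA through a winged helix.

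Strong fd102C peaks lay near the starts of few of these genes. Summits of a longer list of weaker peaks, which includes background, lay near most of them. A summit of the thresholded list (2031 peaks that passed the authors' test of reproducibility) lay within 1 kb of a start of 9 of the 73 members, or 12.3%, and of 9.08% of the 13945 protein-coding genes. In the pooled list, which holds 30000 peaks called on both replicates together and includes background, 62 of 73 members (84.9%) had one, against 58.6% of the 13945. The 9 members were mRpS10, mRpS23, mRpL41, mRpL23, mRpL24, mRpS2, mRpL4, mRpL53 and mRpS16, each with 1 thresholded summit of its own. No enrichment test was run, and the thresholded share stands close to the share of all genes.

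The sequences at 5 of these summits, all upstream of their member, are shown so that the base composition and the motif letters can be read beside the values. Each is the reference sequence of dm6 (RefSeq) within 100 bp of the summit, without annotated UTR bases, written 5′ to 3′ in the member's direction of transcription. Capitals mark matches to the motifs described further on.
mRpS10 (chr3R:15229429-15229629, plus strand): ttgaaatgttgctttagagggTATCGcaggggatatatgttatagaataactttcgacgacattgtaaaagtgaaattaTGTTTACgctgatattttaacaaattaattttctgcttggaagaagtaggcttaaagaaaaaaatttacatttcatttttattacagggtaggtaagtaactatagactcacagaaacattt
mRpS23 (chr2L:13835336-13835536, minus strand): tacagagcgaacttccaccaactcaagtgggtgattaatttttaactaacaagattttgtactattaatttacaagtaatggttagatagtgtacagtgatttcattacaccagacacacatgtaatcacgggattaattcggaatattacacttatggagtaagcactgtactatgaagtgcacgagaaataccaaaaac
mRpL24 (chr2L:4945379-4945578, minus strand): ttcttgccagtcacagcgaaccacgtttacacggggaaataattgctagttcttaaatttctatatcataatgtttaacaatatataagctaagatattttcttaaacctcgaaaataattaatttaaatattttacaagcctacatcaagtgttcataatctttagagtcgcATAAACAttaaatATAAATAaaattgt
mRpS2 (chr2L:4850424-4850624, minus strand): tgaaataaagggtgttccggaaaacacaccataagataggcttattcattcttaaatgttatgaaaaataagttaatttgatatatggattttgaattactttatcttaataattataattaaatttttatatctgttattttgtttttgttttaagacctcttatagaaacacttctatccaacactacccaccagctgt
mRpL4 (chr2L:16329133-16329333, minus strand): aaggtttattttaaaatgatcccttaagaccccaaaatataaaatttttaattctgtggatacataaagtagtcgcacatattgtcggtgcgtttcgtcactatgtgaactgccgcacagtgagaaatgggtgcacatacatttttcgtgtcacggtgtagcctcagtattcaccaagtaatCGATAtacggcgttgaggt
In the windows of mRpS10, mRpS23, mRpS2 and mRpL4 the summit is base 101, and in that of mRpL24 it is base 100. The mRpS10 window holds the fork head letters GTAAACA on the other strand, centred 18 bp from the summit, and the letters CGATA of the insulator protein BEAF-32, also on the other strand and 77 bp from it. The mRpL24 window holds ATAAACA and ATAAATA, centred 77 and 90 bp from the summit on the side of the gene. The mRpL4 window holds CGATA 84 bp from the summit, and the windows of mRpS23 and mRpS2 hold none of the motifs searched.

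The signal of a peak is the authors' own value on a scale that is not stated, so it ranks peaks within a list only. mRpS10, a small-subunit gene, had the strongest peak of the family, with a signal of 582.5 in replicate 1, 436.6 in replicate 2 and 1020.0 in the pooled list. It ranked 12, 13 and 12 in these lists. mRpS23 followed with signals of 376.1, 274.2 and 645.4 and ranks 47, 49 and 44. mRpL41, a large-subunit gene, had 227.7, 273.2 and 499.8, at ranks 175, 51 and 96. These 3 peaks were within the highest 200 of each replicate.

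The next peaks were weaker. The signal at mRpL23 was 149.4 in replicate 1, 150.0 in replicate 2 and 301.0 pooled, and that at mRpL24 was 147.9, 97.9 and 244.3. For mRpS2 it was 99.19, 113.4 and 217.6, and for mRpL4 it was 95.11, 60.56 and 154.6. All 4 of these peaks were among the 2031 highest of each replicate. The signal at mRpL53 was 66.37, 64.48 and 152.5, and at mRpS16 it was 61.76, 76.41 and 137.7. Both of these ranked below the 2031 highest in replicate 1, at 2664 and 3114, and within them in replicate 2, at 1570 and 1129. The last thresholded peak of the whole list had a pooled signal of 125.7, so mRpS16 stood just above the limit.

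**Figure D1:**
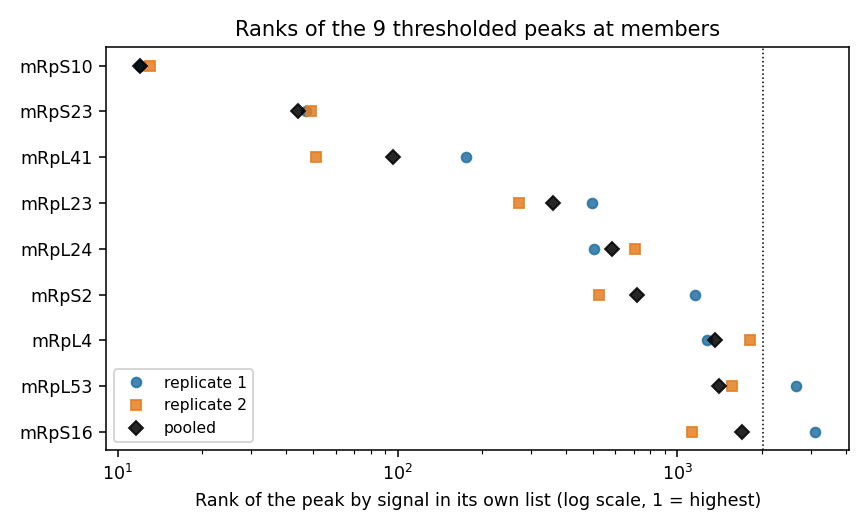
Rank of each of the 9 thresholded peaks at members in replicate 1 (circles), replicate 2 (squares) and the pooled list (diamonds), on a log axis where 1 is the highest peak. The dotted line is rank 2031; only mRpL53 and mRpS16 cross it, in replicate 1 at 2664 and 3114, and at mRpS10 the circle lies under the diamond at rank 12.

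Each of the 9 summits lay beside a pair of genes that start in opposite directions. All 9 had another protein-coding start within 1 kb on the opposite strand, so that none of these peaks can be given to the member alone. Among the 979 thresholded summits within 1 kb of any protein-coding start, 357 (36.5%) were that close to the starts of 2 or more genes. That count takes starts on either strand, and by it the summits at members were also 9 of 9. In 8 of the 9 the summit was upstream of the member, and in 7 it was intergenic. These positions were not counted over the 979, so they are not shown to be particular to the members.

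The summit 136 bp upstream of mRpS10 (3R 15229405 to 15229673) was 121 bp upstream of Art3, a protein arginine methyltransferase gene. The summit 364 bp upstream of mRpS23 (2L 13835350 to 13835559) was 128 bp upstream of CenG1A, which encodes a GTPase-activating protein of Arf GTPases. At mRpL24 (2L 4945299 to 4945658) the summit was 118 bp upstream of the member and 100 bp upstream of betaggt-I, the beta subunit of geranylgeranyl transferase I. At these 3 genes the other gene had the nearer start. At mRpL53 (2R 13953900 to 13954259) it was 115 bp upstream of the member and of CG33155, which has its start at the same position. There it lay 55 bp upstream of a start of AGO1, the Argonaute protein of the microRNA pathway, and inside an intron of that gene.

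At the other 5 the member had the nearest protein-coding start. The summit was 105 bp upstream of mRpS2 (2L 4850344 to 4850703) and 117 bp upstream of Mon1, which acts in the activation of the endosomal GTPase Rab7. It was 44 bp upstream of mRpS16 (2R 14173460 to 14173819) and 53 bp upstream of cg (combgap), a zinc-finger DNA-binding protein gene. It was 109 bp upstream of mRpL41 (2R 15217639 to 15217854), with CG8079 starting 653 bp away, and 101 bp upstream of mRpL4 (2L 16329053 to 16329412), with CG4440 starting 692 bp away. Only at mRpL23 (3L 2373410 to 2373769) was the summit inside the member, in an intron 88 bp downstream of the start, and 138 bp upstream of CG9004.

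**Figure D2:**
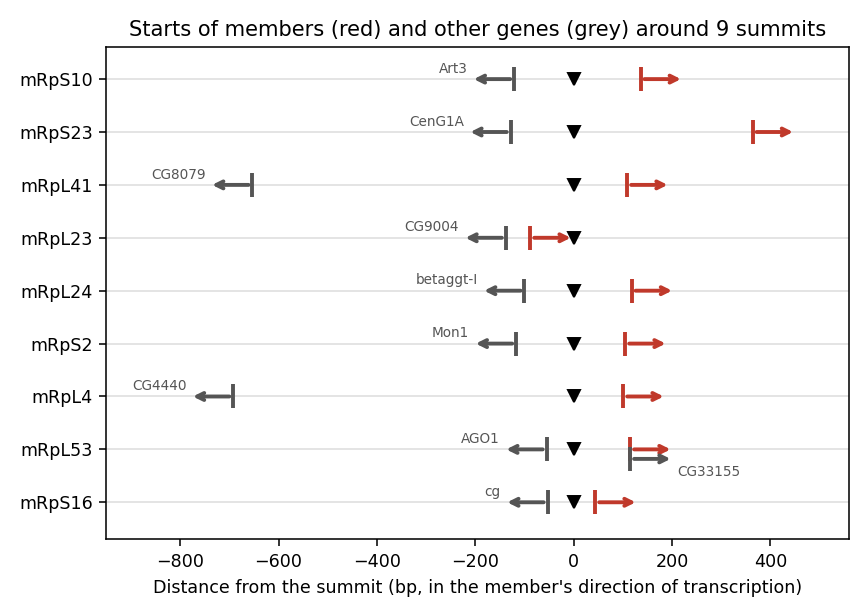
Starts of the 9 members (red) and of the other protein-coding genes within 1 kb (grey) around each thresholded summit (triangle at 0), in bp along the member's direction of transcription; arrows show the direction of each gene. At every summit a grey arrow points away from the red one, from 53 bp at mRpS16 to 692 bp at mRpL4 from the summit, and CG33155 starts where mRpL53 does.

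The distances were far inside the window. The 3 farthest summits within it were 364 bp from mRpS23, 136 bp from mRpS10 and 118 bp from mRpL24. The nearest outside it were 1289 bp from mRpL27, 1887 bp from mRpL46 and 1935 bp from mRpS24. All 9 were within 200 bp of the nearest protein-coding start, against 631 of the 979 thresholded summits near any such start (64.5%). For the member's own start this held for 8 of the 9. All 9 lay within 1 kb of 2 or more genes, as did 36.5% of the 979, and the comparison was not split by this. With a window of 250 bp, 8 members (11%) and 6.32% of all protein-coding genes had a thresholded summit.

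This arrangement was common in the family, bound or not. A protein-coding gene on the opposite strand started within 1 kb upstream of 58 of the 73 members (79.5%), against 36.2% of all protein-coding genes. Genes with such a neighbour are called paired here, a split that was chosen after the partners of the 9 members had been seen. Among paired genes, 9 of 58 members (15.5%) and 739 of 5052 genes (14.6%) had a thresholded summit. None of the 15 other members had one, against 5.93% of the 8893 other genes.

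Most members stood below the threshold. Among the 1000 highest pooled peaks there was a summit at 6 of 73 members (8.22%), against 4.42% of all protein-coding genes. Among the 5000 highest there were 30 (41.1%, against 21.6%), among the 10000 highest 42 (57.5%, against 33.7%) and among the 20000 highest 55 (75.3%, against 48.2%). So 21 members (28.8%) had their highest summit below rank 2031 and within the 5000 highest, where 12.5% of all protein-coding genes had theirs. These counts were also split by pairing. Among paired genes 28 of 58 members (48.3%) and 35% of all genes were in the 5000 highest, and among the rest 2 of 15 members (13.3%) and 14% of all genes. In the whole pooled list the paired members reached 51 of 58 (87.9%, against 74.7%) and the others 11 of 15 (73.3%, against 49.4%).

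**Figure D3:**
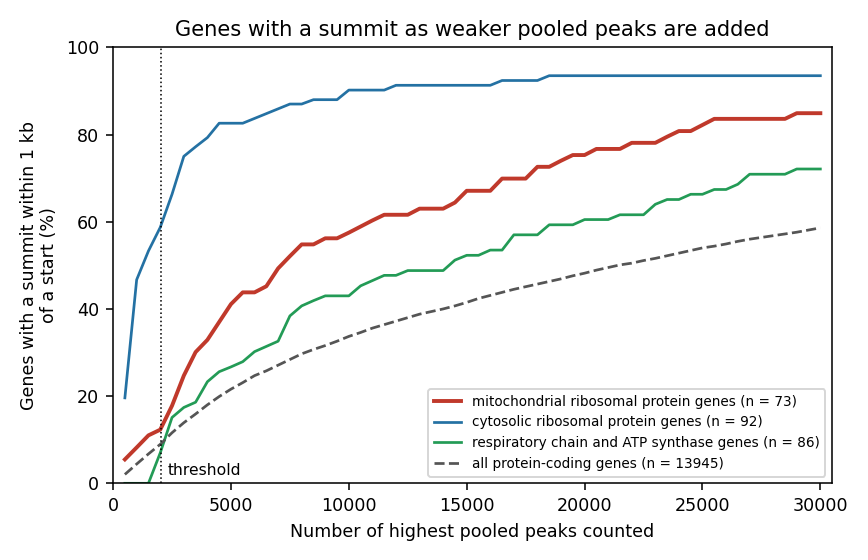
Share of genes (%) with a summit within 1 kb of a start as more pooled peaks are counted from the highest down, for mitochondrial ribosomal protein genes (red), cytosolic ribosomal protein genes (blue), respiratory chain and ATP synthase genes (green) and all protein-coding genes (dashed). The dotted line marks the 2031 thresholded peaks, where the red line (12.3%) is close to the dashed one (9.08%) before it climbs to 41.1% against 21.6% at 5000 peaks.

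The 21 members just below the threshold had pooled signals of 81.74 to 124.1, with a median of 99.05. The highest were mRpS7 (signal 124.1, rank 2084, 232 bp upstream), mRpL43 (123.5, rank 2103, 159 bp upstream), mRpL11 (119.6, rank 2247, 215 bp upstream), mRpS17 (119.0, rank 2273, 435 bp upstream) and mRpS11 (113.4, rank 2527, 24 bp upstream). Of these 5 summits only that of mRpS11 was nearest to the member. The summit of mRpS7 lay nearer to Cdk1, the mitotic cyclin-dependent kinase, that of mRpL43 nearer to CG30183, that of mRpL11 nearer to HtrA2, a mitochondrial protease gene, and that of mRpS17 nearer to Nop60B, a pseudouridine synthase of rRNA. Of the 21 summits, 20 were upstream of the member and 7 were nearest to it among protein-coding starts. A summit within 100 bp was found in both replicates for 19 of them. For the 32 members whose highest summit ranked below 5000, this held for 10. These matches were not counted over all protein-coding genes, and the pooled rank comes from the same reads as the replicates. The difference can therefore not be read as a trait of the members.

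The weakest of the 62 were mRpS28 (signal 39.28), mRpS30 (41.57) and mRpL35 (42.09), close to the lowest signal at any protein-coding gene, 38.49. The deposited −log10 q-value was 3.14 at mRpS7, 1.09 at the member summit of rank 5366 and 0.174 at mRpS28. The median rank over the 62 was 5384, so many of these summits cannot be told from background by their q-value. No pooled summit lay within 1 kb of the other 11 members, among them mRpL14, mRpL30, mRpL33, mRpL38, mRpL46, mRpL48, mRpL49 and mRpL52. Over the 62 members the signal of the highest summit had a median of 78.43, against 66.83 over the 8169 protein-coding genes with one. These genes are those that have a pooled peak, not all genes.

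Position along the gene was upstream for most. The highest pooled summit of 53 of the 62 members (85.5%) was upstream of the start, against 66.7% of the 8169 genes. The median distance was 180.5 bp for members and 217 bp for all. The highest summit lay in the 200 bp upstream of the start for 28 members (45.2%), against 31.1%. Within 100 bp on either side of the start it lay for 16 members (25.8%), against 28.8%. Among paired genes 47 of 51 members (92.2%) and 73.6% of all genes had it upstream, and among the others 6 of 11 members (54.5%) and 60.9%. By annotation 36 of the 62 summits were intergenic, 15 in a 5′ UTR of any gene, 5 in introns, 5 in coding exons and 1 in a 3′ UTR. This split by annotation was not made for all genes.

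**Figure D4:**
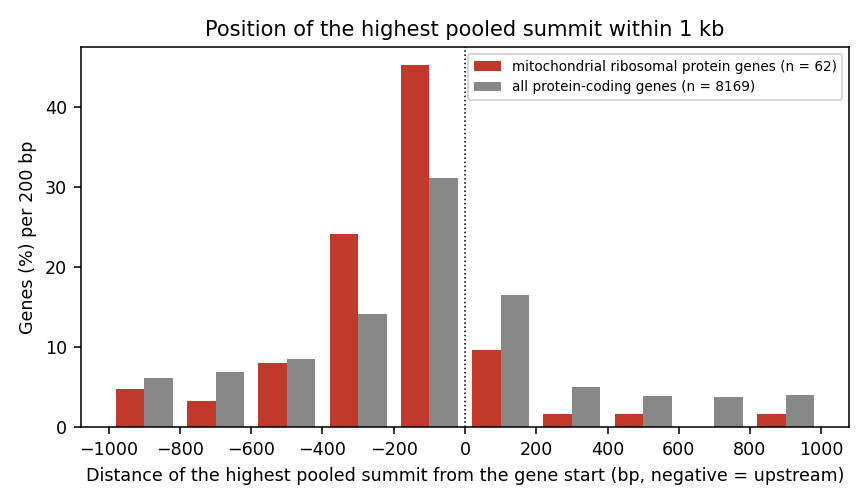
Distance (bp) of the highest pooled summit within 1 kb from the gene start, as the share of genes (%) per 200 bp, for the 62 mitochondrial ribosomal protein genes (red) and the 8169 protein-coding genes (grey) that have one. The tallest bars are the 200 bp upstream of the start, with 45.2% of the members and 31.1% of all genes.

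The replicates differed in how many members they placed among their highest peaks. Among the 2031 highest peaks of replicate 1 there were summits at 7 members (9.59%, against 8.99% of all protein-coding genes), and among those of replicate 2 at 12 (16.4%, against 9.61%). The 7 were found in both (9.59%, against 6.40%). All peaks of replicate 1 gave 53 members (72.6%, against 57.4%), and all peaks of replicate 2 gave 62 (84.9%, against 58.6%). Over the 38 members whose highest pooled summit was matched in both replicates, the replicate signals had a Spearman rho of 0.635, over points chosen for a high pooled signal that comes from the same reads.

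Peaks were found at genes of both subunits. A thresholded summit was found at 5 of 47 mRpL genes (10.6%) and 4 of 26 mRpS genes (15.4%), and a pooled one at 39 (83%) and 23 (88.5%). By chromosome arm the thresholded summits were at 4 of 12 members on 2L, 3 of 12 on 2R, 1 of 17 on 3L, 1 of 21 on 3R and none of 11 on X. The shares of all protein-coding genes were 9.56% on 2L, 8.77% on 2R, 9.75% on 3L, 9.53% on 3R and 7.29% on X. On X 5 of 11 members had a pooled summit, against 52.6% of all protein-coding genes there. On the other arms 57 of 62 did (91.9%), against 59.7% of all genes.

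**Figure D5:**
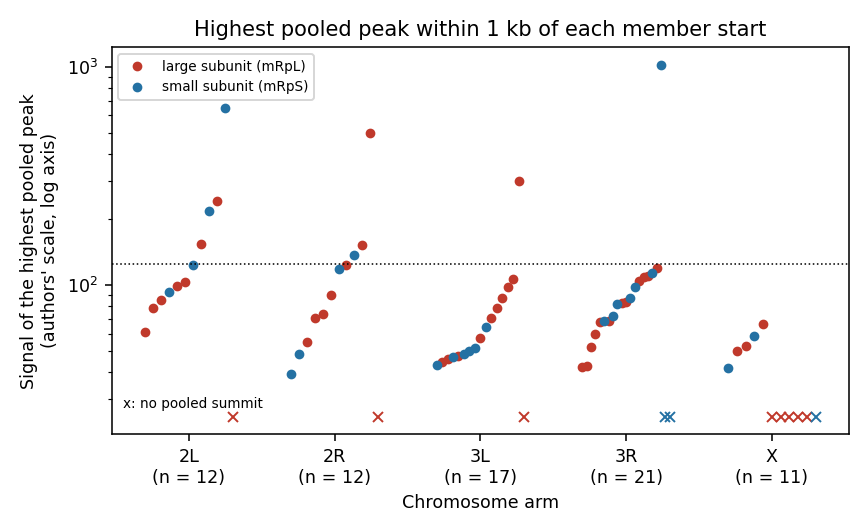
Signal of the highest pooled peak within 1 kb of each member's start (log axis), by chromosome arm, with mRpL genes in red and mRpS genes in blue. Crosses at the bottom are the 11 members with no pooled summit, 6 of them on X, and the 9 points above the dotted line, the lowest thresholded signal, lie on the other arms.

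Other genes of mitochondrial gene expression and energy supply were counted the same way. Of the mitochondrial ribosomal protein genes named otherwise, tko, which encodes the S12 protein of the small subunit, had a pooled summit of signal 68.27 at rank 7473, 22 bp downstream of its start, and bonsai, which encodes the S15 protein, had none. Of 24 mitochondrial translation factor and tRNA synthetase genes, 1 had a thresholded summit (4.17%) and 13 a pooled one (54.2%). The thresholded one, of signal 216.5, lay 957 bp upstream of LeuRS-m, a leucyl-tRNA synthetase gene. Of 8 genes of mitochondrial transcription and RNA, 0 and 6 did. Among 86 respiratory chain and ATP synthase genes, 6 had a thresholded summit (6.98%) and 62 a pooled one (72.1%). The highest of the 6 were COX5A (signal 146.1), ATPsynbeta (141.0), ND-ASHI (136.1) and COX6B (131.3), against 137.7 at mRpS16, the lowest of the 9 members. Beside the 9 of 73 and 62 of 73 mitochondrial ribosomal protein genes, the cytosolic ones, counted with their paralogs, had a thresholded summit at 54 of 92 (58.7%) and a pooled one at 86 (93.5%). The peaks at mRpS10 (1020.0) and mRpS23 (645.4) had higher signals than the strongest peaks at cytosolic ribosomal protein genes, RpL7 (575.5) and RpS27 (506.4). However, the summits at mRpS10 and mRpS23 lay nearer to the starts of Art3 and CenG1A, whereas those at RpL7 and RpS27 lay 39 and 2 bp from these genes' own starts.

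Motif letters were counted on both strands within 100 bp of each summit. The fork head letters ATAAACA or ATAAATA or GTAAACA or GTAAATA were at 3 of the 9 thresholded summits, those of mRpS10, mRpL41 and mRpL24, against 41.5% of the 979 near any protein-coding start. Over the 87 pooled summits within 1 kb of members they were at 32 (36.8%), against 31.8% of 10052. BEAF-32 letters (CGATA) were at 3 of 9, those of mRpS10, mRpL41 and mRpL4, against 33.2%. The 6 letters ACACTG were at 1 of 9, in 2 copies at mRpL53, against 18.3%. The letters GGTCACAC of the core promoter factor M1BP were at 1 of 9, mRpS16, against 4.09%. Those of the replication-related factor DREF, TATCGATA, were at 0 of 9, against 5.62%. CGATA lies inside TATCGATA, and ACACTG can overlap GGTCACAC. The GC content of the windows had a median of 34.3% (25.9 to 53.7%), against 37.81% for the 979.

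The promoters themselves, 250 bp before to 50 bp after the start of the canonical transcript, were searched for the same letters. Those of DREF were in 15 of 73 member promoters (20.5%), against 8.94% of 13944 promoters of protein-coding genes. The share was higher for cytosolic ribosomal protein genes (30.4%), mitochondrial translation factors and tRNA synthetases (29.2%) and mitochondrial transcription and RNA genes (25%). It was 9.3% for respiratory chain and ATP synthase genes. Of the 9 members with a thresholded summit, mRpS23 and mRpL4 hold the DREF letters (22.2%), against 11.5% of the 1266 protein-coding genes with one. Among the 64 members without a thresholded summit, 13 hold them (20.3%). The summit of mRpS23 lies 364 bp upstream of the start of that gene. Of the 11 members with no pooled summit none holds the DREF letters, while 9 hold CGATA (81.8%) and 5 the fork head letters (45.5%). The same was not counted over all protein-coding genes without a pooled summit. These counts can therefore not be tied to the lack of a peak. CGATA was in 42 member promoters (57.5%, against 46.9%), the fork head letters in 37 (50.7%, against 45.8%), ACACTG in 20 (27.4%, against 18.8%) and GGTCACAC in 8 (11%, against 7.54%). These matches are letters in a window and do not show a bound factor.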

How the data were processed

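Peak lists of fd102C-GFP ChIP-seq in whole embryos (2 replicates in 1 group) were used, on assembly dm6 per the labels. The signal of each peak, its −log10 q-value and its summit offset, a position in bp that carries no other unit, are the authors' deposited values. The q-value was used to break ties in rank and is quoted for a few summits, and no cut was set on it. Per the notes deposited with the files, peaks were called against a control, which was not analysed here, for each replicate and for both pooled. These lists hold 30000 peaks each. The thresholded list equals the 2031 highest pooled peaks. The caller, the aligner and the value of the threshold are not stated, and read depth is unknown.

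Starts of all transcripts came from Ensembl release 115, and sequence from RefSeq for the same assembly. A gene had a summit when one lay within 1 kb of any of its starts. A replicate summit matched within 100 bp. Genes were named by a fixed rule: all members with a thresholded summit, the 5 highest and 3 lowest others with a pooled one, and 8 without. Of the 21 symbols listed singly for mitochondrial translation, transcription and RNA genes, 4 were not matched and were left out. The members and lists were chosen with earlier results of these data known, so no test was run and counts stand beside those of all protein-coding genes. Whether the replicates are separate collections is stated only by the word biological. Assignment and motif matching were tested on simulated data. Python 3.11.15, pandas 2.3.3 and SciPy 1.17.1 were used. Alternatives were other windows, starts, peak numbers and motif windows, and each replicate alone.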

Additional observations from a re-analysis of the deposited data

How the results depend on the processing

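No paired analysis was possible because there is 1 group. Of 63 alternative values, 42 were within 1.5 times the value reported and 21 were not. The count of 9 members and of 9 distinct summits ranged from 7 to 12 when 1 replicate's highest peaks were used alone, and from 6 (the 1016 highest thresholded peaks) to 12 (2 kb) otherwise. Members with a pooled summit (62) were 53 to 62 with 1 replicate, 44 within 250 bp, and 34 when the peak had to cover the start, a narrower condition by construction. Members with the nearest start (5) were 3 in those 1016 and 3 to 4 with 1 replicate. Summits within 100 bp of a member start (2) were 1 in the 1016, 1 within 50 bp, 8 within 200 bp and 1 to 3 with 1 replicate. Members with a summit among the highest peaks of both replicates (7) were 5 with 1000 and 19 with 5000 peaks each. Of the counts of motifs, fork head sites (3) were at 8 summits within 250 bp and at 3 to 5 with 1 replicate; DREF (0) at 2 within 250 bp and 0 to 1 with 1 replicate; M1BP (1) at 0 in the 1016 and 0 to 1 with 1 replicate; BEAF-32 (3) at 0 within 50 bp, 7 within 250 bp and 2 to 3 with 1 replicate; ACACTG (1) at 0 within 50 bp and in the 1016, 2 within 250 bp and 0 to 2 with 1 replicate. Wider windows hold more letters, and fewer peaks fewer summits, by construction. With 9 summits no share of motifs is precise.

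No read counts are given, so depth sets no limit that can be stated. Pooled peaks far below the threshold are the least certain. Of the highest summits of all 62 members, at any rank, 2 had no summit within 100 bp in either replicate. A further 10 had one only in replicate 1 and 12 only in replicate 2.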
